A study of Rattus norvegicus with 5 samples.

Results

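The cytosolic ribosomal protein genes encode the proteins that, together with ribosomal RNA, build the cell's protein-making machine. They were taken from the platform annotation of the array as genes whose only symbol starts with Rpl or Rps and a digit, or is Rplp0, Rplp1, Rplp2 or Rpsa, without S6 kinases and pseudogenes. The rule gave 73 of 14506 genes with a single symbol, each represented by its brightest probe set, out of 261 of 29215 probe sets that carry such a symbol. They comprised 42 genes of the large subunit, 3 of its P stalk and 27 of the small subunit, and Rps19bp1, which meets the naming rule but encodes a binding partner of Rps19 and no subunit. Of the 73 members, 68 encode core proteins of the subunits.

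Proximal tubular cells, which line the tubule just behind the kidney's filter, came from Sprague-Dawley rats labelled with type I diabetes. All 5 arrays share that strain and disease, so that no healthy animal is among them. The treated group (3 arrays, from animals labelled 1, 2 and 3) had C-peptide, the peptide that links the insulin chains in proinsulin, for 2 h, and the untreated group (2 arrays, from animals labelled 1 and 2) had none. The sources used here give neither the dose, nor the animals' age, nor how diabetes was induced. No label says whether animal 1 of the treated group is animal 1 of the untreated group.

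Deposited intensities are the authors' PLIER values, a model-based summary of the probes of a probe set, and had array medians of 60.1 to 95.9. They were quantile normalised here, which gives every array the same distribution, and are called normalised intensities below. Differences are C-peptide minus untreated, on log2(intensity + 16). In limma, 0 of 29215 probe sets passed adjusted p 0.05, while 3317 had an unadjusted p under 0.05, so that single genes are described below by their values. All 14 proximal tubule markers examined lay above the 89.6th percentile of mean intensity. Their summed normalised intensity was 29767 to 38993 on the C-peptide arrays and 21438 to 24711 on the untreated arrays, and each of the 14 had a positive difference (median 0.56). The 12 endothelial markers, of the cells that line blood vessels, summed to 9017 to 14059 on the C-peptide arrays and 21581 to 25430 on the untreated arrays, and each had a negative difference (median -1.16). The 11 immune cell markers summed to 5690 to 7787 and 8220 to 9192 in the same order. No marker of these 3 lists was at 0, and their part in the differences described below was not tested. In such bulk RNA, fewer cells of a type and less RNA per cell cannot be told apart.

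A ribosome joins a small subunit, which reads the messenger RNA, to a large subunit, which forms the peptide bond and carries the P stalk that recruits elongation factors. Ribosomal protein messengers are among the most abundant in a cell, and most begin with a terminal oligopyrimidine tract (TOP), a run of C and T bases at the 5′ end through which the mTOR pathway controls their translation. Free ribosomal proteins also act elsewhere, as when Rpl5 and Rpl11 bind Mdm2 and so stabilise p53. Rodent genomes hold many processed pseudogenes of these genes, and probes for a ribosomal protein can also bind transcripts of such copies, so that a value is that of a sequence family more than of a single locus.

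The stretch around the annotated transcription start was searched for runs of C and T bases, which the rule did not use. RefSeq promoters of assembly GRCr8 were found for 60 of the 73 members, not for Rpl7, Rpl8, Rpl15, Rpl23a, Rpl27, Rpl30, Rpl32, Rpl37a, Rpl37l1, Rps9, Rps20, Rps25 and Rps29. A run of at least 6 C or T bases on the transcribed strand that overlaps the 10 bases either side of the start was found in 47 of 60 (78.3%), and in 9487 of all 33469 promoters (28.3%). The same on the other strand, a run of purines, was found in 8 of 60 (13.3%) and in 32.3% of all. A pyrimidine run that ends before the annotated start lies outside the annotated transcript, as in Rps15a, Rpl38, Rpsa and Rplp2 below. The count is thus of runs near the start and not of TOP messengers. The windows below span 15 bases either side of the start, from 5′ to 3′, with the longest such run in capitals as far as it lies in the window. They are shown for the 9 genes with an unadjusted p under 0.05, for which 7 of 9 held a run beside 40 of the other 51. Then follow Rpl18, Rpl38 and Rpsa, from the other end of the differences, and the P stalk. Rps29 and Rps19bp1 had larger differences than Rpsa but are not shown. No promoter was found for Rps29, and Rps19bp1, which is no subunit, held no run.
Rps12, chr1:23500060-23500089 (plus strand): gcacagaagcccagcagagcgcttaaatac
Rps21, chr3:187724023-187724052 (plus strand): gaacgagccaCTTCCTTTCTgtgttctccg
Rps19, chr1:89608673-89608702 (plus strand): cccgacttgtgcgcccgggaaaccccgtcg
Rpl39, chrX:121195882-121195911 (minus strand): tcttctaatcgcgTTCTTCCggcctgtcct
Rps23, chr2:23814502-23814531 (plus strand): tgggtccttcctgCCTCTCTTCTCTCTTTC
Rps13, chr1:180009646-180009675 (minus strand): gccgtttcctacctcgTTCTCTCTTTgctt
Rpl31, chr9:49143096-49143125 (plus strand): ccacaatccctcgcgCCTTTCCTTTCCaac
Rps15a, chr1:181860270-181860299 (minus strand): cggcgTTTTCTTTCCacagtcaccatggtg
Rpl13, chr19:68062499-68062528 (plus strand): ctttgcggtgcccgaTCCTTTCCgctcggc
Rpl18, chr1:105325255-105325284 (plus strand): tctggacctggtctagcaggaggcgccatc
Rpl38, chr10:100200420-100200449 (plus strand): cttcgTTCTTTTTCCgttgttcggtgctcg
Rpsa, chr8:128728864-128728893 (plus strand): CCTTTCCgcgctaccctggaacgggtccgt
Rplp0, chr12:46718376-46718405 (minus strand): gaccgcaccgcaCTTCTCTCgccaggcgtc
Rplp1, chr8:71290858-71290887 (minus strand): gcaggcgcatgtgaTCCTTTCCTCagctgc
Rplp2, chr1:205975906-205975935 (plus strand): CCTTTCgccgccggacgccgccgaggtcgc
Runs reached 21 bases in Rps23 and 12 in Rpl31. No run of 6 was found around the annotated start of Rps12, Rps19 or Rpl18, which says only that these letters are not in this window.

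Motifs of factors known for housekeeping promoters were counted on both strands over the 250 bases before and 50 bases after the start. The ETS factor (GABP) motif CCGGAAG was in 18 of 60 members (30%) and 8.75% of all promoters, the SP1 GC box GGGCGG in 36 of 60 (60%) and 33.1%, and the YY1 motif AANATGGCG in 6 of 60 (10%) and 3.01%. Each promoter was counted once per motif, whether or not its matches overlap. Among the 9 genes with an unadjusted p under 0.05, 3 held the ETS motif, 5 the GC box and 0 the YY1 motif. Rps21 held the ETS motif and the GC box 2 times each, in capitals in the 250 bases before its start, which are printed to show this layout.
Rps21, chr3:187723788-187724037 (plus strand): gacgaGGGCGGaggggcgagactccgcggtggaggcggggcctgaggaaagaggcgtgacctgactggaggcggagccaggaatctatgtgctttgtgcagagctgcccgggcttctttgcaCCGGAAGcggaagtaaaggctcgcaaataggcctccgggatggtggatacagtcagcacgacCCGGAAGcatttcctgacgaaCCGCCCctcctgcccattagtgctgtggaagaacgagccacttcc

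As a family, the ribosomal protein genes differed little between C-peptide and untreated cells. Their median log2 difference was -0.09, a 1.06-fold lower intensity, beside a median of 0.02 over all probe sets and a median standard error of 0.15 for a single member. Differences ran from -0.79 (Rps12) to 0.36 (Rpl18), and 8 of 73 were larger than 1.3-fold, beside 4509 of 29215 probe sets. A difference below 0 was found for 55 members and above 0 for 18, while 46.4% of all probe sets lay below 0. None passed adjusted p 0.05 in limma (0% of all probe sets did), and the smallest adjusted p was 0.199, for Rps21. At an unadjusted p under 0.05, 9 members (12.3%) were lower with C-peptide, beside 6.3% of all probe sets, and 0 were higher, beside 5.06%. Of the members, 72 were brighter than the median probe set. In a fit of probe sets above the median alone, 10% were lower at that p, closer to the members' share. Of all genes with 1 symbol, 7.12% were lower at that p. All C-peptide arrays lay below both untreated arrays in 23 members (31.5%), beside 13.8% of all probe sets, and above them in 1 member, Rpl36, beside 16.1%. Members share targets, normalisation and arrays, so these counts are not counts of independent genes.

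The family's median depended on which untreated array was kept. The array of untreated animal 2 held the highest normalised intensity of the 5 for 40 of 73 members, and that of C-peptide animal 3 the lowest for 31. Relative to each member's mean, the median member was at -0.04, 0.0043 and -0.12 on treated arrays 1, 2 and 3, and at -0.03 and 0.16 on untreated arrays 1 and 2. For the typical member, the array of untreated animal 1 thus lay within the range of the treated ones and that of untreated animal 2 above it. Without untreated animal 2 the family's median was -0.0014, with 37 members below 0 and 36 above. Without untreated animal 1 it was -0.21, with 63 below 0 and 10 above, and without C-peptide animal 3 it was -0.05. The members' share of each array's summed deposited intensity was 1.65% to 1.83% on the C-peptide arrays and 1.63% and 1.99% on the untreated arrays, so that the groups overlapped.

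**Figure D1:**
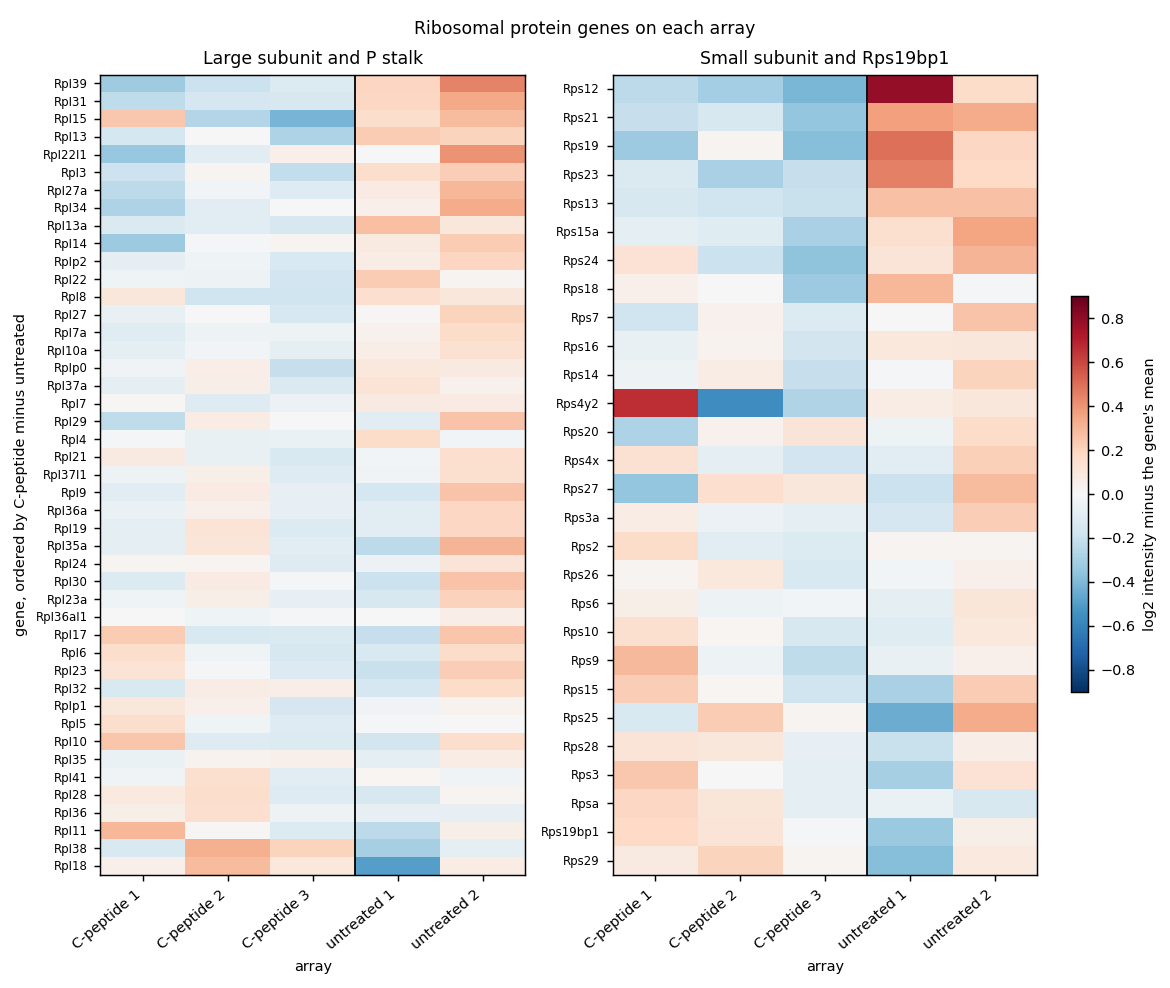
Log2 normalised intensity of each ribosomal protein gene minus that gene's mean, in colour (red above, blue below), on the 3 C-peptide and 2 untreated arrays, with genes ordered by their difference between the groups. Most of the upper rows in both panels are blue on the C-peptide arrays and red on both untreated arrays, and over all rows the array of untreated animal 2 holds the highest value in 40 of 73.

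**Figure D2:**
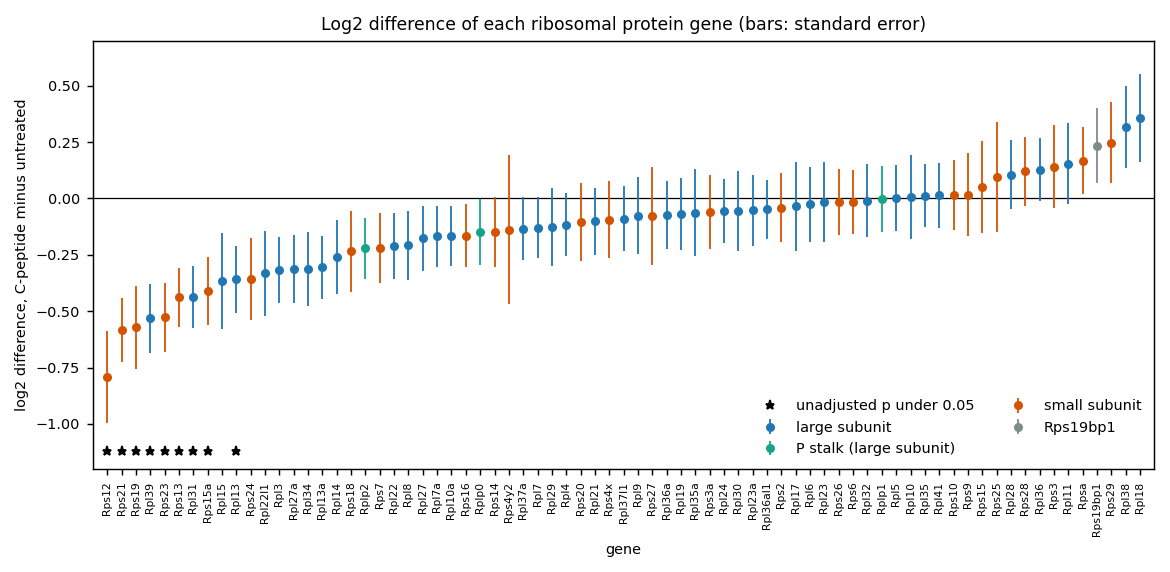
Log2 difference, C-peptide minus untreated, of each of the 73 genes, with bars of 1 standard error and colours for the subunit. Stars mark the 9 genes with an unadjusted p under 0.05, all of them below 0, and none passed adjusted p 0.05.

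The small subunit held the lowest values. Of its 27 genes, 6 (22.2%) were lower at an unadjusted p under 0.05, and of the 45 genes of the large subunit with its stalk 3 (6.67%) were. The share was 6.3% of all probe sets, and 10% in the fit of probe sets above the median alone. Their medians were alike, at -0.09 in both, and the difference between the subunits was not tested.

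Rps12, a protein of the beak of the small subunit, had the largest difference of the family. Its normalised intensities were 802, 763 and 710 on the C-peptide arrays and 1649 and 1063 on the untreated arrays. The groups did not overlap, and the untreated arrays lay further apart than the treated ones. The difference was -0.79 ± 0.20 (SE; adjusted p = 0.214), a 1.73-fold lower intensity. Rps12 was at -0.49 without untreated animal 1, from which the higher untreated value came.

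Rps21, another small subunit protein, read 397, 416 and 359 with C-peptide and 600 and 584 without. Here the arrays of each group lay close together, and the gap between the groups was wider than the spread within either. Its difference was -0.58 ± 0.14 (SE; adjusted p = 0.199), and it kept an unadjusted p under 0.05 in all 16 refits of the same probe set, as did Rps12.

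Rps19, which is needed for maturation of 18S ribosomal RNA and is mutated in Diamond-Blackfan anaemia in humans, read 307, 396 and 294 with C-peptide and 556 and 445 without. The highest treated array, animal 2, was close to the lower untreated array, also animal 2. Its difference was -0.57 ± 0.18 (SE; adjusted p = 0.324).

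Rps23, which sits at the decoding centre, read 1718, 1532 and 1629 with C-peptide and 2582 and 2137 without (-0.53 ± 0.15, SE; adjusted p = 0.267). Rps13, which contacts the large subunit, read 206, 201 and 198 with C-peptide and 279 and 278 without (-0.44 ± 0.13, SE; adjusted p = 0.289). The 5 values of Rps13 formed a tight cluster in each group, with SDs of 4.30 and 0.849. Rps15a, also of the small subunit, read 444, 439 and 384 with C-peptide and 525 and 610 without (-0.41 ± 0.15, SE; adjusted p = 0.381).

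On the large subunit, Rpl39, a short protein that lines the exit tunnel, was lowest. It read 249, 274 and 289 with C-peptide and 363 and 435 without, again with no overlap (-0.53 ± 0.15, SE; adjusted p = 0.266). Rpl31, which lies beside the mouth of that tunnel, read 1042, 1097 and 1102 with C-peptide and 1393 and 1548 without (-0.44 ± 0.14, SE; adjusted p = 0.314). Rpl13, named after its values were seen as the last with an unadjusted p under 0.05, read 1126, 1260 and 1032 with C-peptide and 1474 and 1448 without (-0.36 ± 0.15, SE; adjusted p = 0.424).

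These 9 genes stayed below 0 when any single array was left out, which their lack of overlap fixes in advance, apart from shifts of normalisation. The number of the 9 at an unadjusted p under 0.05 was 8, 9 or 6 when treated array 1, 2 or 3 was dropped. In these fits 6.07%, 6.56% and 5.21% of all probe sets were lower at that p. Rpl13 was lost without C-peptide animal 1 and without C-peptide animal 3, and Rps15a and Rps19 were also lost without C-peptide animal 3. Fits without an untreated array leave 1 array in that group, so genes at that p are not counted for them. The 9 are thus not shown to hold at that p without either untreated array. In the values as deposited the 9 had differences of -0.55 (Rpl13) to -0.96 (Rps12), where the median of all probe sets was -0.13.

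**Figure D3:**
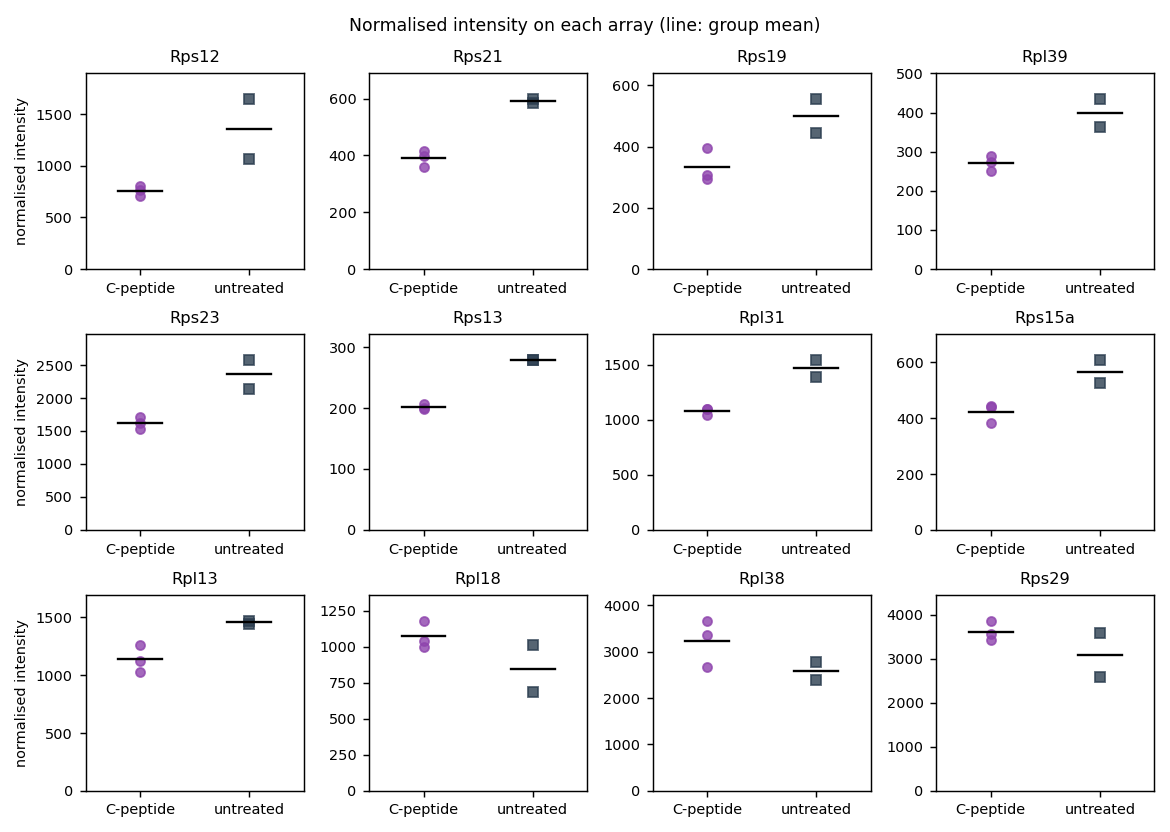
Normalised intensity, on a linear axis from 0, on each array for the 9 genes with an unadjusted p under 0.05 and for the 3 with the largest positive differences (Rpl18, Rpl38 and Rps29). Points are C-peptide arrays, squares untreated arrays and lines group means. In the first 9 panels every point lies below both squares, and in the last 3 the groups overlap.

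At the other end, no gene had an unadjusted p under 0.05. Rpl18, of the large subunit, read 1000, 1182 and 1037 with C-peptide and 683 and 1014 without, so that untreated animal 2 fell among the treated arrays (0.36 ± 0.20, SE; adjusted p = 0.543). Rpl38, which in mice is needed for translation of Hox messengers, read 2669, 3674 and 3371 with C-peptide and 2388 and 2771 without (0.32 ± 0.18, SE; adjusted p = 0.559). Its lowest treated array lay below the higher untreated one. Rps29, a zinc-binding small subunit protein, read 3553, 3864 and 3416 with C-peptide and 2573 and 3579 without (0.25 ± 0.18, SE), with the treated arrays of animals 1 and 3 between the untreated ones. Rps19bp1, the binding partner of Rps19, was at 0.23 ± 0.17. Rpl36, which named the single higher member without overlap, read 1049, 1122 and 976 with C-peptide and 957 and 959 without (0.13 ± 0.14, SE; adjusted p = 0.783). That gap is smaller than the spread of the treated arrays. In the values as deposited Rpl36 was at -0.07, where the median of all probe sets was -0.13, and its sign was kept in 15 of 16 refits.

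The P stalk proteins showed no common difference beyond their error. Rplp0, the base of the stalk, read 1514, 1616 and 1339 with C-peptide and 1656 and 1641 without (-0.15 ± 0.15, SE; adjusted p = 0.755). Rplp1 read 3423, 3283 and 2868 with C-peptide and 3117 and 3258 without (-0.0019 ± 0.15, SE; adjusted p = 0.998), and its groups overlapped. Rplp2, which pairs with Rplp1, read 1797, 1867 and 1736 with C-peptide and 2010 and 2195 without (-0.22 ± 0.14, SE; adjusted p = 0.593). Rplp0 and Rplp2 had no overlap between groups, at 1.11-fold and 1.17-fold.

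Genes with known roles outside the ribosome had differences on both sides of 0, none with an unadjusted p under 0.05 among those given next. Rpl5 read 3112, 2716 and 2574 with C-peptide and 2774 and 2797 without, and was at 0.0031 ± 0.15 (other probe sets -0.15 and -0.18). Rpl11, its partner in binding Mdm2, was at 0.15 ± 0.18, with intensities of 1214 to 1633 and 1121 to 1374. Rps3, which also takes part in DNA repair and binds NF-kB, was at 0.14 ± 0.19 (other probe set 0.08). Rpsa, also known as the laminin receptor, was at 0.17 ± 0.15 (other probe set -0.09). Rpl13a, a part of the interferon-gamma-activated inhibitor of translation, read 2196, 2249 and 2166 with C-peptide and 2892 and 2573 without. Its groups did not overlap (-0.31 ± 0.14, SE; adjusted p = 0.461), and its other probe set was at -0.29. Rps6, the substrate for which the S6 kinases are named, read 3670, 3423 and 3465 with C-peptide and 3318 and 3810 without, with the treated arrays inside the untreated range (-0.02 ± 0.14, SE; adjusted p = 0.978). Rack1, a scaffold on the small subunit that also binds protein kinase C, and Fau, which carries a small subunit protein fused to a ubiquitin-like one, are no members and were at -0.13 ± 0.15 and -0.0030 ± 0.14.

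Among the paralogs, Rpl22l1, the only member dimmer than the median probe set, read 50.5, 62.3 and 71.1 with C-peptide and 67.9 and 95.5 without (-0.33 ± 0.19, SE; adjusted p = 0.558). Its parent Rpl22 read 903, 897 and 820 with C-peptide and 1086 and 944 without (-0.21 ± 0.14, SE; adjusted p = 0.637). Rpl22l1 overlapped between groups and Rpl22 did not. Rpl36al1 and its parent Rpl36a were at -0.05 ± 0.13 and -0.07 ± 0.15. Their other probe sets were at -0.42 and -0.13. That of Rpl36al1, at a mean intensity of 86.8, had an unadjusted p of 0.023 in limma and no overlap between groups. Beside Rpl39, given above, the other parents of paralogs had these values: Rpl3 was at -0.32 ± 0.15, Rpl7 at -0.13 ± 0.14, Rpl10 at 0.0067 ± 0.18 and Rps27 at -0.08 ± 0.22. Rps4y2, named after its values were seen, varied most among the treated arrays on the log2 scale, with normalised intensities of 179, 67.8 and 86.0, beside 113 and 116 untreated.

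Most members were measured by several probe sets. Of the 73 genes, 55 had at least 2 probe sets, and of their 188 probe sets beside the brightest, 174 had a difference of the same sign. In 45 of the 55 genes all probe sets shared a sign, and the median range over a gene's probe sets was 0.0806. The 4 probe sets of Rps12 lay between -0.82 and -0.71, the 3 of Rps23 between -0.56 and -0.49 and the 6 of Rps15a between -0.49 and -0.38. All 4 of Rpl38 lay between 0.30 and 0.33 and all 21 of Rpl21, the gene with most probe sets, between -0.24 and -0.08. Others spread more widely. The 7 probe sets of Rpl31 lay between -0.56 and -0.06, with 6 of them at an unadjusted p under 0.05, and the 4 of Rps21 between -0.86 and -0.54. Rps9, whose brightest probe set was at 0.02, had 2 others, at -0.28 or below, and Rpl13 had a dim one at -1.02. Of the 45 probe sets of the 9 lower genes, 42 had an unadjusted p under 0.05. The brightest probe set of each of the 9 is among the 42 by selection, because its p chose the gene. Of all probe sets, 6.3% were lower at that p. Outside the 9 genes, Rps24 and Rpl36al1 each had 1 such probe set. The 45 are not independent measurements, since probe sets of a gene can share probes or target copies of the same sequence. Exactly the values of another of the gene were found for 14 probe sets of 6 genes, 4 of Rpl39 among them.

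**Figure D4:**
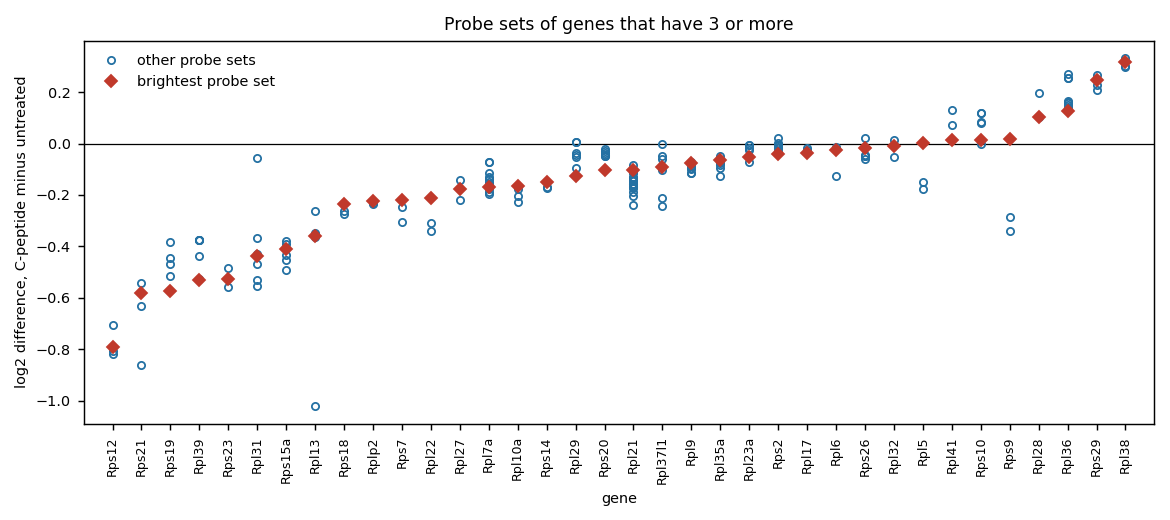
Log2 difference, C-peptide minus untreated, of every probe set of the 36 genes with at least 3, with the brightest, which represents the gene, as a filled diamond. The probe sets of Rps12, Rps23, Rps15a, Rpl38 and Rpl21 cluster around the brightest, and those of Rpl13, Rpl31, Rps9 and Rps21 spread more widely.

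Other genes of protein synthesis were set beside the family. Of 68 mitochondrial ribosomal protein genes, whose products make the separate ribosome inside mitochondria, 51 lay above 0 and 17 below, with a median of 0.14, while 46.4% of all probe sets lay below 0. At an unadjusted p under 0.05, 7 of 68 were higher, beside 5.06% of all probe sets, 0 were lower, beside 6.3%, and 0 passed adjusted p 0.05. Mrpl23 was at 0.70 ± 0.19 (SE; adjusted p = 0.229), Mrpl42 at 0.62 ± 0.18 and Mrpl16 at 0.50 ± 0.16. Their median was 0.24 without untreated animal 2 and 0.02 without untreated animal 1, so that it moved with the same arrays as that of the cytosolic family.

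**Figure D5:**
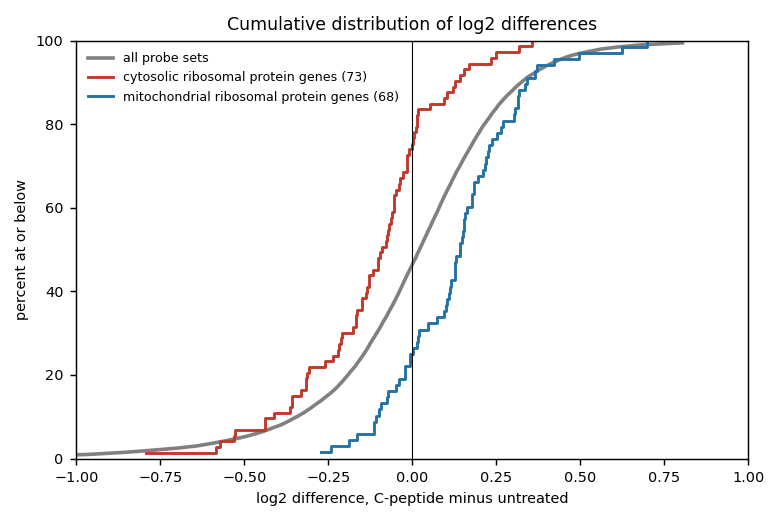
Percent of genes at or below each log2 difference, C-peptide minus untreated, for the 73 cytosolic and 68 mitochondrial ribosomal protein genes and for all probe sets. The cytosolic curve lies to the left of that of all probe sets over most of its range (median -0.09 against 0.02) and the mitochondrial curve to the right (median 0.14).

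Of 19 measured elongation factors and other genes with TOP messengers, 2 were lower at an unadjusted p under 0.05, 0 were higher and the median was -0.03. The shares of all probe sets, 6.3% lower and 5.06% higher, are the background for these 4 lists, and with so few genes called in each their counts are read no further. Eef1b2, which recharges elongation factor 1A with GTP, was at -0.60 ± 0.15 (SE; adjusted p = 0.216), the RNA-binding protein Hnrnpa1 at -0.37 ± 0.14 and Tpt1, a classic TOP messenger, at -0.34 ± 0.14. Of 23 initiation factors, 0 had an unadjusted p under 0.05, and the median was 0.06, with Eif2b1 at 0.33 ± 0.17. Of 33 ribosome biogenesis genes, Wdr12, a factor of large subunit maturation, was higher at an unadjusted p under 0.05 (0.41 ± 0.16, SE; adjusted p = 0.408), and the median was 0.04. Of 15 genes of the mTOR and S6 kinase axis, Rps6ka2, a ribosomal S6 kinase, was lower at an unadjusted p under 0.05 (-0.80 ± 0.21, SE; adjusted p = 0.226), and the median was 0.06. Rheb, the GTPase that activates mTOR, was at -0.31 ± 0.14, and Eif4ebp1, the inhibitor of cap binding that mTOR phosphorylates, at 0.22 ± 0.15. No gene of these 4 lists passed adjusted p 0.05.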

How the data were processed

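The authors deposited a linear intensity per probe set for each of 5 arrays. The submitters' processing notes name PLIER and Affymetrix Expression Console 1.1. Sources used here give no background correction or scaling. RNA was amplified and labelled by a whole-transcript sense protocol, per the labels' protocols. Array medians were unequal, so intensities were quantile normalised here. The values were taken to log2(value + 16), and fitted with group as the only term (R 4.3.3, package limma 3.58.1, functions lmFit and eBayes, tests two-sided, Benjamini-Hochberg over all 29215 probe sets). Of these, 15310 had 1 symbol in the platform annotation, 323 several and 13582 none. A gene's brightest probe set by mean deposited intensity represents it. The rule's "ps plus a number" was read as -ps with a number, since otherwise Rps10 and the like would drop out.

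The members and lists were chosen with earlier results of these data known. Genes named were the 8 lowest and 8 highest members above the median probe set, genes fixed by name, and up to 3 of each of the 4 translation lists and of the mitochondrial list by p. Marker lists of podocytes, thick limb and distal tubule, collecting duct, stroma and red blood cells had median differences of -0.36, 0.23, 0.22, -0.23 and 0.02. No filter on dim probe sets was used, so all 73 members were tested. The scripts were tested on simulated data. The labels number the animals within each group and do not say whether a shared number means the same animal. The number of arrays limits precision.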

Additional observations from a re-analysis of the deposited data

How the results depend on the processing

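The number of ribosomal protein genes past adjusted p 0.05 in limma was 0 under every alternative run, and their smallest adjusted p over the 16 refits was 0.0608 to 0.815. The number of all probe sets past it, 0 after quantile normalisation, was 52 in the values as deposited, 29 with arrays centred on their medians, 53 with arrays centred on non-member probe sets as bright as the members, 1 at a pseudocount of 1, 118 at a pseudocount of 64, 393 over probe sets above the median alone, 329 over those with 1 symbol alone and 207 with a trended and robust variance prior, and 0 without any single array. The cause was not tested, beyond the fewer probe sets tested in the filtered fits.

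The family's median of -0.09 was -0.26 in the values as deposited, where that of all probe sets was -0.13, and -0.21 to -0.0014 when 1 array was left out. Members with an unadjusted p under 0.05 in either direction, 9 in all, were 14 at a pseudocount of 64 and 12 without C-peptide animal 1. Among those 12, Rpl38 was higher (unadjusted p = 0.028 in limma), so that the members at that p were not all lower there. Without C-peptide animal 3, 6 of the 9 lower genes were left. With the animal number as a replicate block they were 5 and the median was -0.05. The labels do not say that the numbers pair arrays, and deviations of same-numbered arrays from their group means correlated at -0.0248 and 0.0082. Leaving out Rps19bp1, chosen after seeing the data, gave 9 and -0.09, and averaging all probe sets per gene gave 9 and -0.11. No probe set with several symbols met the rule, so adding such probe sets gave no value. Values of the named genes stayed within 1 SD between replicates in 461 of their comparisons with an alternative and moved further in 48.

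The 3 arrays against 2 limit the precision of every value.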
